A study of Mus musculus with 9 samples.

Results

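The interleukin-1 family and its receptors were examined in neutrophils that had been sorted from 3 compartments of tumor-bearing mice: the marrow, the circulation and the tumor in the pancreas. The 9 genes were chosen by name: the ligands Il1a, Il1b, Il18 and Il36g, the antagonist Il1rn, the signaling receptor Il1r1, the decoy receptor Il1r2, and the accessory chains Il1rap and Il18rap. All 9 were found among the 46517 genes listed, 8 under these names and Il36g under its older symbol Il1f9. The mice were C57BL/6 animals that received an orthotopic transplant (OT) of tumor cells in the pancreas. The transplanted cells were a luciferase-expressing pancreatic ductal adenocarcinoma line derived from genetically engineered mice, whose alleles include Trp53R172H/+ and PDX-cre. All 3 groups came from such OT mice on day 27, so that every library is from tumor-bearing animals, and no mice without a tumor were analysed here. There were 3 libraries of bone marrow neutrophils (labelled Ly6G.hi), 3 of blood neutrophils (Ly6G+) and 3 of tumor-infiltrating neutrophils (Ly6G+), each from a pool of 5 mice. The stated gate was the same for all compartments: live CD45+ cells, negative for lineage markers of T cells, B cells and NK cells, and positive for Ly6G and Ly6C. The methods state that mice of both sexes were used in matched groups, and the age was not given in the sources used here.

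Interleukin-1 alpha and beta bind the same receptor, IL-1R1, which signals only once it has recruited the accessory chain IL-1RAP. The family carries its own brakes: the receptor antagonist encoded by Il1rn occupies IL-1R1 without signaling, and the decoy IL-1R2 binds IL-1 but has no signaling domain. IL-18 uses a separate receptor whose accessory chain is encoded by Il18rap, and IL-36 gamma signals through IL-1RL2 with IL-1RAP. Signals from these receptors run through MYD88 and IRAK kinases to NF-kB. IL-1 beta and IL-18 are made as inactive precursors, so a transcript level is not a level of active cytokine. Neutrophils are a known source of IL-1 beta and of its antagonist, and they carry much of the decoy receptor.

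Values are log2 FPKM, which the authors calculated from reads, gene length and library size, with a small constant added before the log. Whole numbers of reads could be recovered from them for every gene, between 4580807 and 7949367 per library. Library sizes had been scaled, by factors of 0.796 to 0.881 in bone marrow and blood and of 1.08 to 1.22 in tumor. A gene was called when its Benjamini-Hochberg adjusted p from limma, fitted over 17714 genes, was under 0.05. The libraries correlated with r of 0.889 to 0.954 within a compartment and of 0.706 to 0.892 between compartments.

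The sorted populations were checked against 12 neutrophil markers, all of them detected in every compartment. Their summed level is given in RPM, from reads divided by the recovered reads of each library and not by its scaled size. It was 15179 to 20825 RPM in tumor, against 34282 to 34917 in blood and 107845 to 112238 in bone marrow. Of the 12, 3 were called higher and 9 lower in tumor than in blood, beside 32.4% and 20.2% of all genes. Against bone marrow 0 were higher and 11 lower in tumor, beside 25.2% and 18.4% of all genes. The tumor libraries also held RNA of other cell types. Of 12 epithelial markers, 11 were higher in tumor than in blood, with a summed level of 2918 to 6125 RPM in tumor against 188 to 356 in blood and 115 to 128 in bone marrow. Fibroblast markers summed to 1127 to 1388 RPM in tumor and to at most 9.99 elsewhere (8 of 10 higher than in blood), and acinar markers to 680 to 2961 in tumor and at most 8.64 elsewhere (8 of 8 tested). Endothelial markers reached 107 to 142 RPM in tumor against 30.6 to 35.9 in blood (5 of 6 higher). Macrophage and monocyte markers were no higher in sum in tumor (577 to 816) than in blood (1370 to 1614), but single markers went both ways. Of 13, 2 were called lower in tumor than in blood, Csf1r (1254 to 1709 reads against 4796 to 6885) and Ccr2 (38 to 56 against 229 to 393). The 2 called higher were C1qb (60 to 87 reads against 19 to 29) and Ms4a7 (3 to 5 against 0). Dendritic cell markers summed to 47.2 to 62.1 in tumor, 114 to 155 in blood and 16.2 to 30.5 in bone marrow. Of the 7 tested, 2 were called lower in tumor than in blood, and 1, Itgax, higher than in bone marrow (1.55, limma adjusted p = 0.000206). Lymphocyte and NK markers summed to 8.26 to 13.9 in tumor, 80.7 to 155 in blood and 27.7 to 53.1 in bone marrow, with Ncr1 and Klrb1c at 0 in tumor. Platelet markers (469 to 638) and red cell markers (245 to 471) were highest in blood, and basophil, mast cell and eosinophil markers summed to 132 to 260 in all libraries. Of the 3 tumor libraries, the third held the most epithelial and acinar RNA and the second the least. Fewer cells of a type and less RNA per cell cannot be told apart in such bulk libraries.

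In tumor neutrophil libraries 4 members were higher than in blood (Il1a, Il1b, Il1rn and Il1r1), 3 were lower (Il1rap, Il18rap and Il36g), and Il1r2 and Il18 did not pass the test. Of all genes tested 52.6% were called in that comparison, 32.4% higher and 20.2% lower. Against bone marrow 6 members were higher in tumor and 1 was lower, with 43.7% of all genes called (25.2% higher, 18.4% lower). Blood against bone marrow gave 6 higher members and 0 lower at a background of 28.9% (12.6% higher, 16.3% lower). The 3 members without a call in blood against bone marrow were Il1a, Il1r1 and Il18, of which Il1r1 had the smallest adjusted p at 0.0531. That last count rests on single libraries, since it was 4 without the third bone marrow library. The 3 comparisons share their libraries and are not independent. Among all called genes 61.6% were higher in tumor than in blood as deposited, against 74.0% with plain library totals, 44.9% after quantile normalization and 41.1% after median centring, and the median difference of all genes was 0.50 on the log2 scale, 0.89, -0.23 and -0.25 in the same order. In tumor against bone marrow the share was 57.8% as deposited and 74.2%, 43.3% and 41.2% with these scalings, and in blood against bone marrow it was 43.6% and, after median centring, 58.0%.

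**Figure D1:**
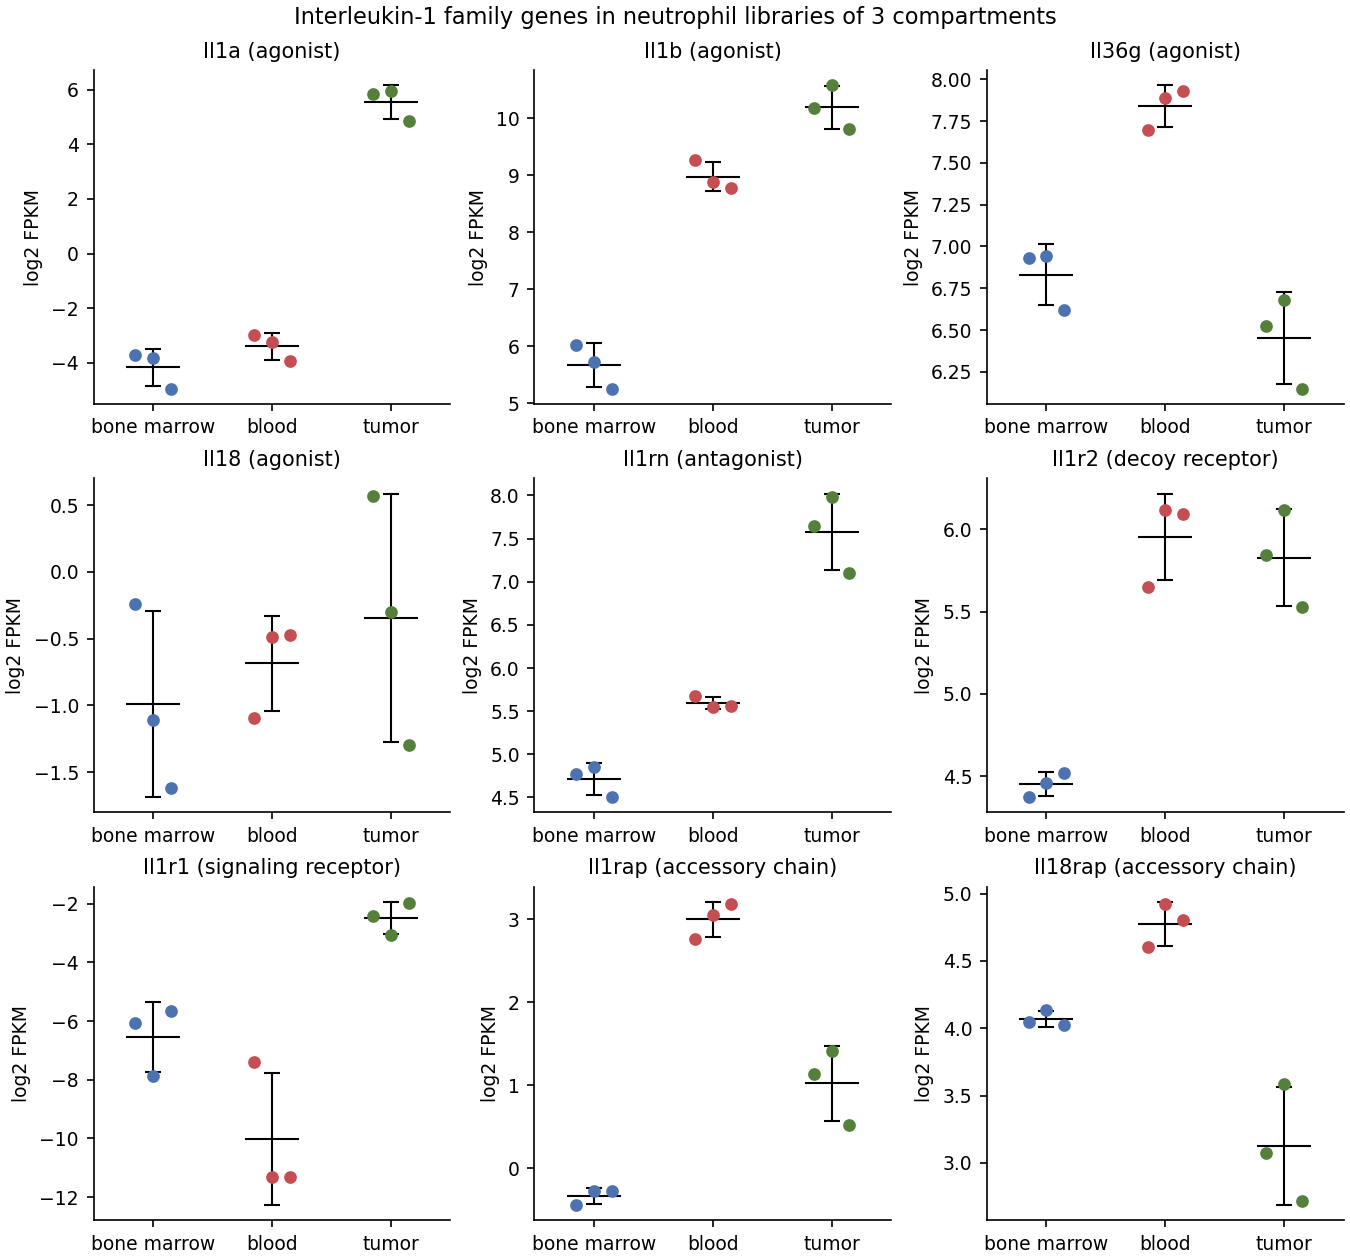
Log2 FPKM of each of the 9 genes in the 9 libraries, by compartment. Points are libraries, and bars give the mean and SD of 3. Each panel has its own axis. Il1a and Il1r1 lie higher in the tumor libraries than in all others, Il1b is lowest in bone marrow and highest in tumor, and Il36g, Il1rap and Il18rap are highest in blood.

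Il1b and Il1a, which lie next to each other on chromosome 2 and encode the agonists of IL-1R1, both had their highest values in tumor libraries, but from very different starting levels. Il1b (ENSMUSG00000027398.12, chr2:129364570-129371139 on the minus strand of GRCm38) had 2851, 1958 and 1667 reads in the bone marrow libraries. It had 15948, 17247 and 13512 reads in blood and 47149, 75629 and 46868 in tumor. The 3 compartments did not overlap, at log2 FPKM values of 10.19 ± 0.38 (SD, n = 3) in tumor against 8.97 ± 0.26 in blood and 5.67 ± 0.38 in bone marrow. Most of the difference lay between bone marrow and blood, where Il1b was 9.90-fold higher (log2 fold change 3.31, SE 0.25, limma adjusted p = 6.81e-05). The tumor libraries were a further 2.32-fold above blood (1.21, SE 0.25, limma adjusted p = 0.00378) and 23.0-fold above bone marrow. The call against blood was lost with median centring, at a log2 fold change of 0.46 and a limma adjusted p of 0.160. Il1b made up 0.721% to 1.09% of all recovered reads in tumor. Per length of exon it ranked between 1 and 4 among all genes there, against 13 to 24 in blood and 222 to 362 in bone marrow.

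Il1a (ENSMUSG00000027399.1, chr2:129299610-129309972, minus strand) was close to absent outside the tumor. It had 5, 4 and 2 reads in bone marrow, 5, 6 and 3 in blood, and 3690, 4829 and 2367 in tumor. No tumor library came near the others, with mean log2 FPKM of 5.54 ± 0.61 in tumor against -3.38 ± 0.49 in blood and -4.16 ± 0.68 in bone marrow (SDs of 3 libraries). The log2 fold change was 8.93 against blood (SE 0.45, limma adjusted p = 5.03e-06) and 9.70 against bone marrow (SE 0.45, limma adjusted p = 3.89e-06). Since few reads stand behind the low groups, the summed reads give the ratio better: tumor was 509 times blood (exact 95% interval 304 to 932, from 10886 against 14 reads). The interval covers counting error only. Between blood and bone marrow the difference of 0.77 did not pass (95% interval -0.26 to 1.80, limma adjusted p = 0.249). Gm14023, which runs on the opposite strand and shares 222 exon bases with Il1a, had 665, 740 and 295 reads in tumor and 4 to 14 in each other library. The library protocol did not mark strand, so reads of that stretch cannot be divided between the 2 genes. Gm14023 amounted to 12.5% to 18.0% of the Il1a reads in tumor. Il1bos, which overlaps 25 exon bases of Il1b, amounted to at most 1.10% of the Il1b reads in any library.

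Il1rn (ENSMUSG00000026981.14, chr2:24336853-24351494, plus strand), the antagonist, had 2685, 2395 and 2211 reads in bone marrow, 2961, 3837 and 3234 in blood, and 18222, 27993 and 15983 in tumor. Its log2 FPKM was 4.71 ± 0.18, 5.60 ± 0.07 and 7.58 ± 0.44 (SD, n = 3), with no overlap between compartments. In contrast to Il1b, most of its difference lay between blood and tumor. Tumor was 3.95-fold above blood (1.98, SE 0.21, limma adjusted p = 0.000109) and 7.28-fold above bone marrow (2.86, SE 0.21, limma adjusted p = 1.99e-05). Blood was 1.84-fold above bone marrow (0.88, SE 0.21, limma adjusted p = 0.0138), a call that was lost without the third bone marrow library (0.78, adjusted p = 0.0538). In each of Il1a, Il1b and Il1rn the second tumor library was the highest and the third the lowest. In log2 FPKM this order was shared by Il1r2, Il36g, Il1rap and Il18rap.

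The sequences before the annotated starts of these genes are shown because Il1a, Il1b and Il1rn were called higher in tumor against both other compartments, and Il36g, a ligand of the same chromosome, was lower than in blood. Each is the 250 bases upstream of a RefSeq start in GRCm38.p6, read 5′ to 3′ in the direction of the gene. All 9 members had such a window, 12 windows in all. Capitals mark matches to 5 motifs searched on both strands: GGG and CC with any 5 bases between them for NF-kB, TGANTCA for AP-1, ACGTG for the HIF core, TTGCNNAA for C/EBP and TATAAA for a TATA box. No 2 motifs overlapped in the windows printed.
Il1a, chr2:129309973-129310222, minus strand: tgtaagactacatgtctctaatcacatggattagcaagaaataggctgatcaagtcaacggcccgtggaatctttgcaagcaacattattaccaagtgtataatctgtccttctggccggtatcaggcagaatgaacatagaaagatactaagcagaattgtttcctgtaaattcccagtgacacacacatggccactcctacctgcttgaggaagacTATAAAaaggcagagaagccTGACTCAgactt
Il1b, chr2:129371140-129371389, minus strand: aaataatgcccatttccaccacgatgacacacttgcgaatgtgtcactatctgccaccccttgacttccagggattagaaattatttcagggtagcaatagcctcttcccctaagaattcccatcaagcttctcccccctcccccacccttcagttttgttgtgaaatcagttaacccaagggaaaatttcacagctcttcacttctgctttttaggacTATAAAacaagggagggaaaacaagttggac
Il1rn, first of 3 starts, chr2:24336610-24336859, plus strand: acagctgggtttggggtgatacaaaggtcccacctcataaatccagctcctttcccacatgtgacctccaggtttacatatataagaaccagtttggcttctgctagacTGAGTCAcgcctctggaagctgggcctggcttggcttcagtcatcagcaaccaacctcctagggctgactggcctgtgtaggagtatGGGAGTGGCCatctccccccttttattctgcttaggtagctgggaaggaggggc
Il36g, chr2:24186226-24186475, plus strand: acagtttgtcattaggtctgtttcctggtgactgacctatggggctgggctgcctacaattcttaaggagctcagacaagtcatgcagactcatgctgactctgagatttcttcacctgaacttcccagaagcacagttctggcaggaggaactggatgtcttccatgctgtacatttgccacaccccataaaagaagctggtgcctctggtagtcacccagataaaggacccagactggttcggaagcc
Il1a and Il1b both have a TATA box, which begins 32 and 31 bases before the start, and Il1a has an AP-1 match 12 bases before it. The first Il1rn window has an NF-kB match 54 bases and an AP-1 match 141 bases before the start. The Il36g window has no match to any of the 5. Of all 32851 promoter windows of that length 12.4% held the TATA letters, 6.75% the AP-1 letters and 45.8% the NF-kB letters. Among the 12 windows of members, 3 held TATA, 2 AP-1, 4 NF-kB, 3 the HIF core (16.6% of all windows) and 1 C/EBP (9.56%). A match is a run of letters and not a measured binding site.

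Il36g (Il1f9, ENSMUSG00000044103.4, chr2:24186476-24193568, plus strand), which encodes the agonist IL-36 gamma, was the most abundant of the 4 agonist transcripts in bone marrow. Like Il1b it was higher in blood than in bone marrow, but unlike Il1b it was lower in tumor than in blood. It had 5795, 4929 and 4630 reads in bone marrow, 5815, 9380 and 8122 in blood, and 4054, 5503 and 3998 in tumor. Its log2 FPKM was 6.83 ± 0.18, 7.84 ± 0.12 and 6.45 ± 0.27 (SD, n = 3), and the blood libraries lay above all others. Tumor was 2.62-fold below blood (log2 fold change -1.39, SE 0.16, limma adjusted p = 0.000167), and blood was 2.01-fold above bone marrow (1.01, SE 0.16, limma adjusted p = 0.00217). Tumor and bone marrow overlapped, with a difference of -0.38 (95% interval -0.74 to -0.02, limma adjusted p = 0.0823), which turned to 0.073 with plain library totals and passed with median centring, limma-voom or without the second tumor library.

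Il18 (ENSMUSG00000039217.11, chr9:50554827-50581840, plus strand) was scarce in every compartment. It had 37, 17 and 14 reads in bone marrow, 12, 26 and 22 in blood, and 60, 40 and 21 in tumor. Its log2 FPKM was -0.99 ± 0.70, -0.68 ± 0.36 and -0.34 ± 0.93 (SD, n = 3), and all compartments overlapped. The difference of tumor from blood was 0.34 (95% interval -0.84 to 1.52, limma adjusted p = 0.600). At this depth the interval is wide and includes a fall as well as a rise. Its sign turned with quantile normalization, with median centring and without the first tumor library. The gene length behind its FPKM is 6565 bases and not the genomic span used for the other members, so its FPKM is not set beside theirs.

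Compared per kilobase of exon, the make-up of the agonist transcripts differed between compartments. In bone marrow Il36g was 73.2% ± 3.26 and Il1b 26.2% ± 3.06 of the summed level of the 4 ligands (SD, n = 3). In blood Il1b was 63.5% ± 6.00 and Il36g 36.4% ± 5.96. In tumor Il1b was 86.4% ± 1.28, Il36g 8.13% ± 0.69 and Il1a 5.35% ± 1.09, whereas Il1a was at most 0.0502% in any bone marrow or blood library. The ranges of Il1b and of Il36g did not overlap between compartments, and Il18 stayed at or under 0.711% throughout.

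The ratio of antagonist to agonist transcript is not changed by any scaling that multiplies a whole library by 1 factor. Quantile normalization is not of that kind, and under it the difference of tumor from blood was 2.30 for Il1rn and 0.93 for Il1b. Il1rn minus Il1b, on the log2 FPKM scale, was -1.24, -0.87 and -0.75 in the bone marrow libraries. It was -3.59, -3.32 and -3.22 in blood and -2.53, -2.59 and -2.71 in tumor. Bone marrow thus had the most antagonist for its agonist, blood the least, and tumor lay between without overlapping either. Per kilobase of exon, the Il1rn level was 0.117 to 0.133 of the Il1b level in tumor against 0.0640 to 0.0825 in blood and 0.324 to 0.457 in bone marrow. An exact permutation test of the compartment labels, with 280 arrangements, gave p = 0.00357, the smallest it can give. That test takes no direction and does not compare single pairs of compartments, for which 3 against 3 libraries cannot reach the threshold.

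**Figure D2:**
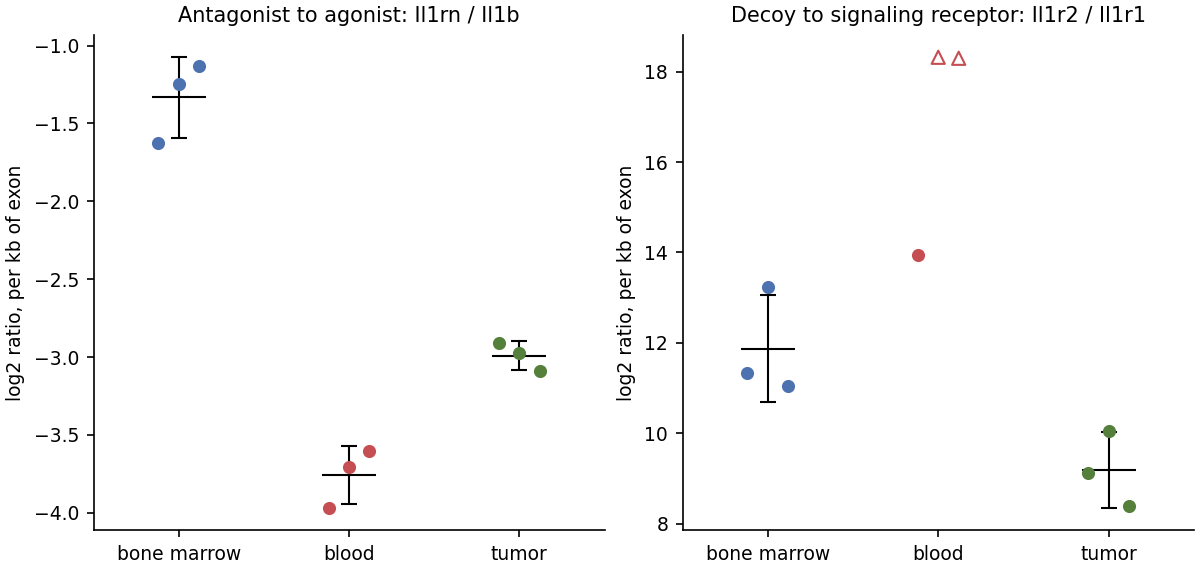
Log2 ratios within each library, per kilobase of exon, of Il1rn to Il1b (left) and of Il1r2 to Il1r1 (right). Points are libraries, and bars give the mean and SD of 3. Open triangles mark the 2 blood libraries with 0 Il1r1 reads, whose position depends on the constant added before the log, and blood has no bar there. On the left the 3 compartments do not overlap, with tumor between blood and bone marrow. On the right the tumor libraries lie below all others.

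The receptors of IL-1 were dominated by the decoy. Il1r2 (ENSMUSG00000026073.12, chr1:40074079-40125231, plus strand) had 7100, 6376 and 7807 reads in bone marrow, 10152, 19810 and 16381 in blood, and 18189, 26789 and 18755 in tumor. On the log2 FPKM scale it was 4.45 ± 0.07, 5.95 ± 0.26 and 5.83 ± 0.29 (SD, n = 3), so blood and tumor overlapped and bone marrow lay below both. It was 2.83-fold higher in blood than in bone marrow (1.5, SE 0.18, limma adjusted p = 0.000550) and 2.59-fold higher in tumor than in bone marrow (1.37, SE 0.18, limma adjusted p = 0.000385). Tumor and blood differed by -0.13 (95% interval -0.53 to 0.28, limma adjusted p = 0.571), a sign that turned with plain library totals (0.32), with quantile normalization (0.45, adjusted p = 0.0408) and without the third tumor library (0.024). Median centring gave a call below 0 (-0.88, adjusted p = 0.00533).

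Gm37347, an unclassified transcript annotated within the span of Il1r2 on the same strand, with no exon base in common (chr1:40088511-40091581), did not follow it. It had 3660, 3574 and 3871 reads in bone marrow, 2679, 3751 and 2817 in blood, and 11164, 19727 and 8814 in tumor. Tumor was above blood by 1.42 (SE 0.26, limma adjusted p = 0.00228) and above bone marrow by 1.56 (SE 0.26, limma adjusted p = 0.00167). Its reads came to 49.6% to 56.1% of the Il1r2 reads in bone marrow and 47.0% to 73.6% in tumor, against 17.2% to 26.4% in blood, so blood lay below both other compartments.

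Il1r1 (ENSMUSG00000026072.11, chr1:40225080-40317257, plus strand), the receptor that signals, was rare. It had 9, 2 and 12 reads in bone marrow, 2, 0 and 0 in blood, and 108, 84 and 187 in tumor. All tumor libraries lay above all others, at a mean log2 FPKM of -2.47 ± 0.54 (SD, n = 3), against -6.53 ± 1.19 in bone marrow. The tumor reads were 124 times those of blood after scaling (exact 95% interval 34.1 to 1029, 379 against 2 reads) and 14.4 times those of bone marrow (9.46 to 23.0, 379 against 23 reads). In limma the differences were 7.54 (SE 1.15, adjusted p = 0.000801) and 4.06 (SE 1.15, adjusted p = 0.0204). Both sizes depend on the constant added before the log: with log2(FPKM + 0.1) they were 1.47 and 1.33 and with log2(FPKM + 1) 0.24 and 0.23, and the calls held (adjusted p = 0.000800 and 0.00132 with the latter). The call against bone marrow was lost with quantile normalization (adjusted p = 0.133) and without the second bone marrow library (0.0726), the first tumor library (0.0559) or the third (0.0658). Blood against bone marrow was -3.48 (SE 1.15, limma adjusted p = 0.0531), which passed without the first blood library (-4.79, adjusted p = 0.00662). That fit left only blood libraries with 0 Il1r1 reads, so its size is set by the constant. With log2(FPKM + 0.1) the difference was -0.14 (limma adjusted p = 0.614) and with log2(FPKM + 1) it was -0.016 (limma adjusted p = 0.890).

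The tumor library with the most Il1r1 reads, the third, was the one with the most epithelial (6125 RPM), acinar (2961) and fibroblast (1388) marker RNA. The second tumor library had the fewest Il1r1 reads and the least epithelial (2918) and acinar (680) marker RNA, while fibroblast markers were lowest in the first (1127, against 1187 in the second). Endothelial markers were lowest in the third (107, against 142 and 141 in the other 2). All members except Il1r1 and Il18 were lowest in the third tumor library and highest in the second, in log2 FPKM. This held for members higher in tumor than in blood (Il1a, Il1b, Il1rn) and for members lower in it (Il36g, Il1rap, Il18rap). In blood the second library had 356 RPM of epithelial markers, against 188 and 192 in the other 2, and 0 Il1r1 reads. The part of these other cells in the values of any member was not tested.

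The ratio of decoy to signaling receptor was large in every library. Per kilobase of exon the Il1r2 level was 2127 to 9646 times the Il1r1 level in bone marrow and 334 to 1060 times in tumor. In blood it was 15800 times in the first library, while the other 2 held no Il1r1 read to set it against. Every bone marrow library lay above every tumor library. No mean and no test are given here for this ratio, since the values of those 2 blood libraries are set by the constant added before the log.

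Il1rap (ENSMUSG00000022514.13, chr16:26581704-26730117, plus strand), the accessory chain shared by the IL-1, IL-33 and IL-36 receptors, was highest in blood. It had 729, 691 and 817 reads in bone marrow, 3996, 6854 and 6331 in blood, and 2026, 2984 and 1695 in tumor. At -0.33 ± 0.10, 3.0 ± 0.21 and 1.02 ± 0.45 log2 FPKM (SD, n = 3), no compartment overlapped another. Blood was 10.1-fold above bone marrow (3.33, SE 0.23, limma adjusted p = 4.99e-05). Tumor was 3.94-fold below blood (-1.98, SE 0.23, limma adjusted p = 0.000210) but still 2.56-fold above bone marrow (1.36, SE 0.23, limma adjusted p = 0.00190). Gm20319, which overlaps 552 of its exon bases on the opposite strand, had 0 to 9 reads.

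Il18rap (ENSMUSG00000026068.10, chr1:40515362-40551705, plus strand), the accessory chain of the IL-18 receptor, was the only member lower in tumor than in both other compartments. It had 4024, 3606 and 3926 reads in bone marrow, 3487, 6162 and 4765 in blood, and 1896, 3305 and 1896 in tumor. The tumor libraries lay below all others, at 3.13 ± 0.44 log2 FPKM against 4.07 ± 0.06 in bone marrow and 4.78 ± 0.16 in blood (SD, n = 3). Tumor was 3.14-fold below blood (-1.65, SE 0.21, limma adjusted p = 0.000272) and 1.92-fold below bone marrow (-0.94, SE 0.21, limma adjusted p = 0.00616). Of all genes, 12.3% were called lower in tumor than in both compartments, and 19.4% higher, as Il1a, Il1b, Il1rn and Il1r1 were. All tumor libraries lay above all others for these 4 members and for 25.2% of all genes, and below all others for Il18rap alone and for 14.6% of all genes. The difference between blood and bone marrow (0.71, SE 0.21, limma adjusted p = 0.0331) was lost in 8 of 21 alternatives, among them quantile normalization and the omission of any 1 bone marrow library.

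**Figure D3:**
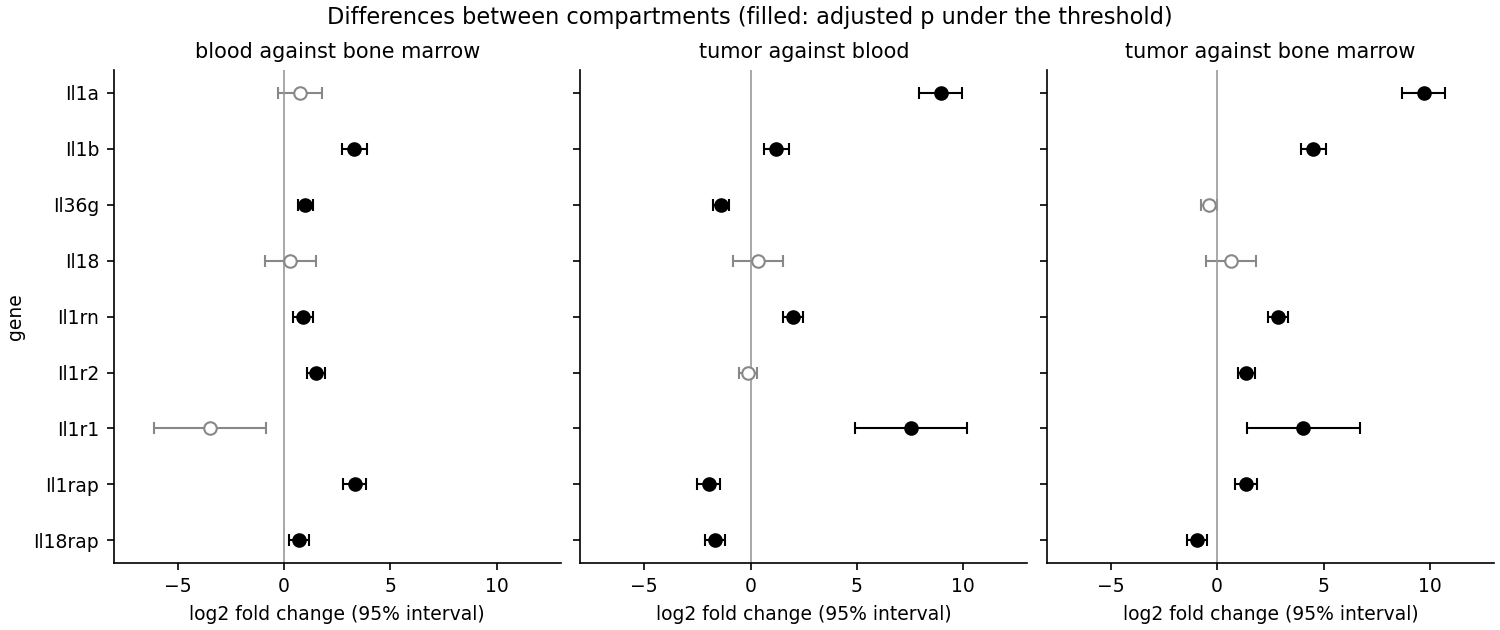
Log2 fold changes of the 9 genes in the 3 comparisons, with unadjusted 95% intervals from limma. Filled points had an adjusted p under the threshold. Il1a and Il1r1 have the largest differences in tumor, Il1rap, Il18rap and Il36g lie below 0 in tumor against blood and above it in blood against bone marrow, and Il1r2 in tumor against blood lies near 0, with a sign that depends on the scaling.

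Set side by side per kilobase of exon, the members spanned several orders of magnitude. Exon RPKM here is reads per kilobase of exon on the scaled library size. In bone marrow Il1r2 stood first at an exon RPKM of 588 ± 29.98, followed by Il36g (493 ± 60.1), Il1b (179 ± 46.0), Il18rap (90.4 ± 3.58), Il1rn (69.7 ± 8.52), Il1rap (10.4 ± 0.69) and Il18 (3.44 ± 1.72), with Il1a and Il1r1 last and overlapping. In blood Il1b (1749 ± 323) and Il1r2 (1679 ± 288) led and overlapped, Il36g came next (988 ± 83.6), and Il18rap (148 ± 16.5) and Il1rn (128 ± 6.37) overlapped behind it. In tumor Il1b led at 4108 ± 1081, followed by Il1r2 (1543 ± 310), and Il1rn (521 ± 153), Il36g (381 ± 69.4) and Il1a (259 ± 93.9) followed, with each overlapping the next. Il18 and Il1r1 overlapped at the foot of the order in tumor, at 5.69 ± 3.44 and 2.73 ± 0.98. All errors are SDs of 3 libraries.

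**Figure D4:**
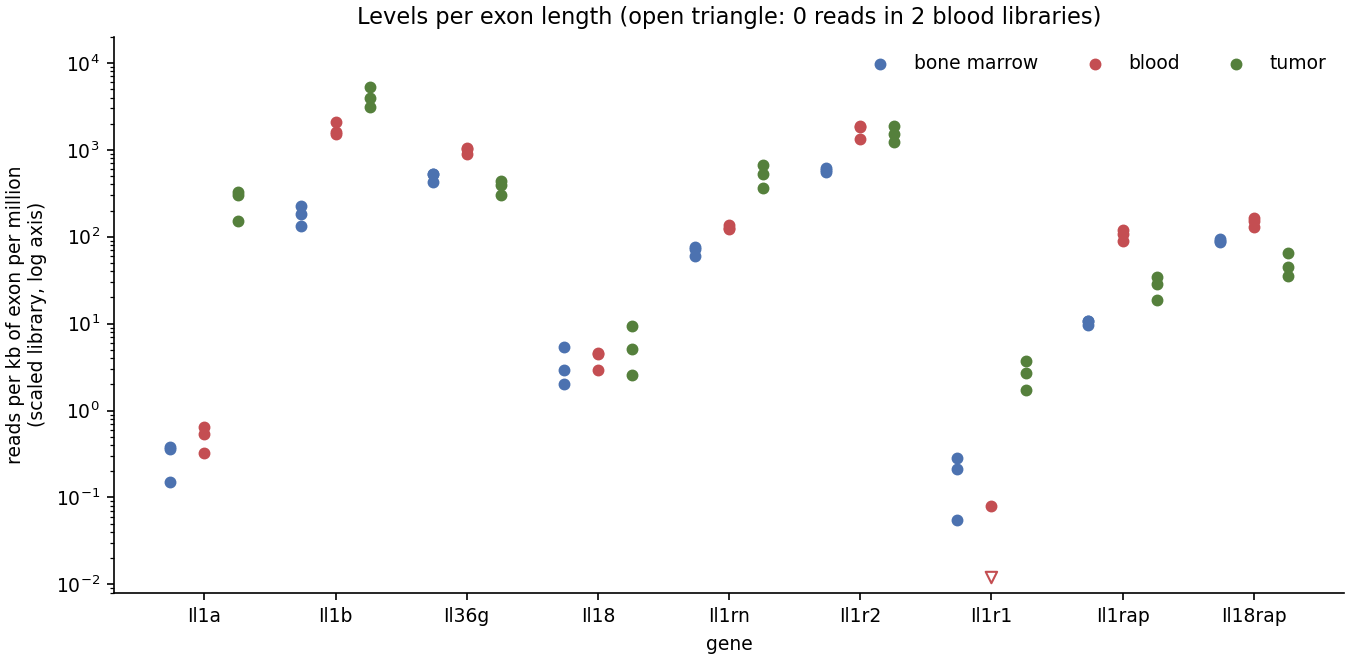
Exon RPKM (reads per kilobase of exon on the scaled library size), on a log axis, for the 9 genes. Each point is 1 library. The open triangle marks the 2 blood libraries with 0 Il1r1 reads. Il1b reaches 3094 to 5245 in tumor, and Il1a lies at 151 to 324 in tumor and under 1 elsewhere.

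The receptor genes stand in a row on chromosome 1, over 478 kb, in the order Il1r2, Il1r1, Il1rl2, Il1rl1, Il18r1 and Il18rap. Il1r2, Il1r1 and Il1rl2 were each called higher in tumor than in bone marrow, Il1rl1 and Il18r1 had no call in any comparison, and Il18rap was lower in tumor. Il1rl2, the IL-36 receptor, had 18, 16 and 61 reads in bone marrow, 21, 82 and 60 in blood, and 198, 270 and 157 in tumor, above bone marrow (2.76, SE 0.59, limma adjusted p = 0.00561) but without a call against blood (1.49, limma adjusted p = 0.0622). Il18r1, the ligand-binding chain that Il18rap serves, had 79 to 189 reads in each library and no call against blood (-0.28, limma adjusted p = 0.363) or bone marrow (-0.46, limma adjusted p = 0.169). Il1rl1, the IL-33 receptor, had 3 to 32 reads throughout.

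A second row of 198 kb on chromosome 2 holds Il36g and Il1rn with the other IL-36 genes. Only these 2 of its 6 protein-coding genes had more than 11 reads in any library. Il36b (listed as Il1f8) had 0 to 11 reads, Il36rn (Il1f5), the IL-36 receptor antagonist, had 0 to 8, and Il36a (Il1f6) and Il1f10 had 1 read each over all libraries. Tumor lay above blood for Il1rn and below it for Il36g.

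**Figure D5:**
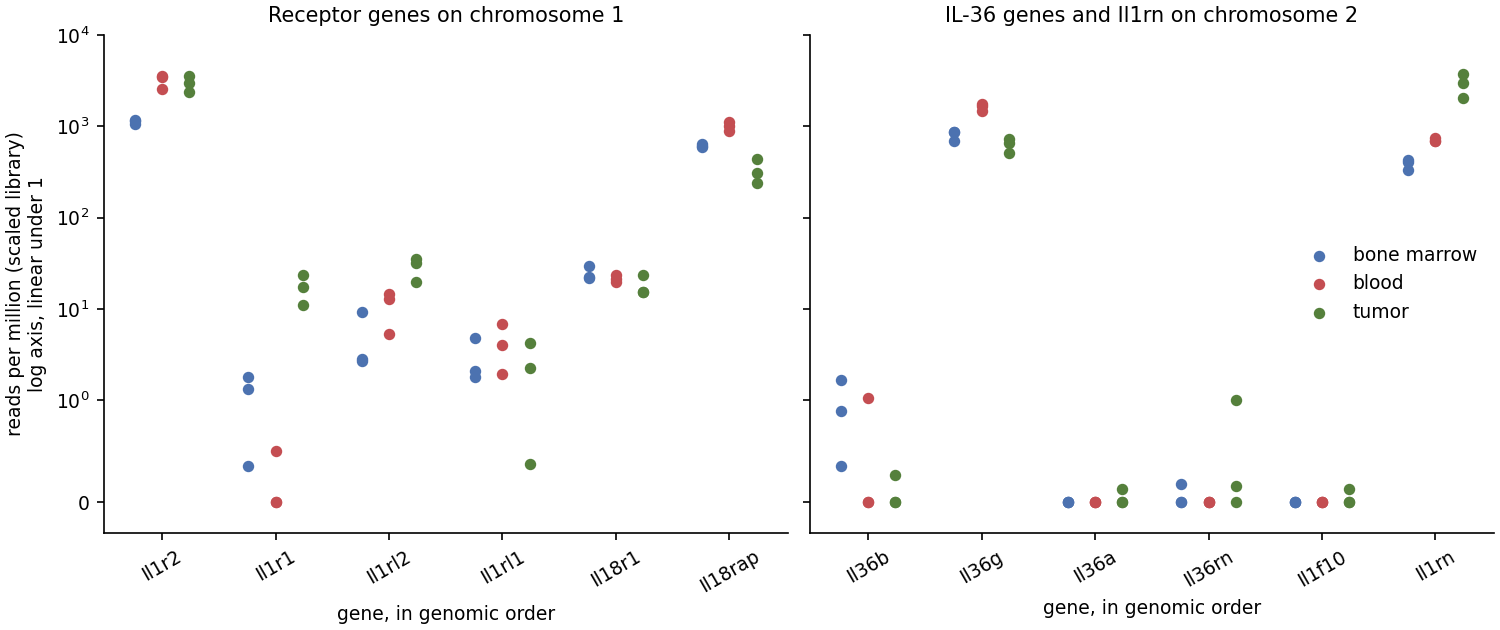
RPM (on the scaled library size) for the protein-coding genes of the receptor row on chromosome 1 (left) and of the row with Il36g and Il1rn on chromosome 2 (right), in genomic order. The axis is logarithmic above 1 and linear below, and each point is 1 library. Il1r2 and Il18rap stand far above the 4 genes between them, and Il36g and Il1rn above the rest of their row.

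Of 12 other ligand and receptor genes of the family, 8 could be tested. In tumor against blood 2 were higher and 1 lower, beside 32.4% and 20.2% of all genes. Against bone marrow 3 were higher and 1 lower in tumor (25.2% and 18.4% of all genes), and 0 and 1 in blood (12.6% and 16.3%). Their median log2 fold change in tumor against blood was 0.61, beside 0.50 for all genes. Il33, an alarmin of epithelial and stromal cells, had 985, 865 and 1067 reads in tumor and 0 to 5 in any other library (8.77 against blood, SE 1.14, limma adjusted p = 0.000350). The part of other cells in this value was not tested. Sigirr, an inhibitory receptor, had 99, 42 and 106 reads in tumor and 8 to 31 elsewhere (1.87 against blood, SE 0.47, limma adjusted p = 0.00981). For Sigirr, too, the part of other cells was not tested. Il18bp, which encodes the soluble inhibitor of IL-18, had 649, 696 and 773 reads in bone marrow, 330, 465 and 396 in blood, and 217, 291 and 288 in tumor. It was lower in tumor than in blood by 1.20 and than in bone marrow by 1.61 on the log2 scale.

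Of 18 genes of the signaling cascade, 3 were higher and 4 lower in tumor than in blood, with a median of -0.05 beside 0.50 for all genes. Against bone marrow 3 were higher and 4 lower, with a median of -0.16 beside 0.29. Among all genes tested, 32.4% were higher and 20.2% lower than in blood, and 25.2% and 18.4% against bone marrow. Myd88, the adaptor of all these receptors, was lower in tumor than in blood (-2.45, SE 0.14) and than in bone marrow (-0.85). It had 1151 to 1748 reads in tumor against 3878 to 6538 in blood and 2080 to 2418 in bone marrow. Irak4, the kinase that binds MYD88 first, was also lower than in blood (-2.39, SE 0.15) and than in bone marrow (-1.79), at 340 to 460 reads in tumor against 1107 to 1528 in blood. Irak2, a kinase of the same complex, was higher in tumor by 2.23 (SE 0.19) against blood and by 2.31 against bone marrow, with 2753, 4066 and 2787 tumor reads against 374 to 562 in all other libraries. The 3 genes thus did not move in 1 direction.

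Genes that process or release IL-1 were 16 in number, of which 6 were higher and 4 lower in tumor than in blood, and 7 and 7 in tumor against bone marrow. Of all genes 32.4% were higher and 20.2% lower than in blood, and 25.2% and 18.4% against bone marrow. The median log2 fold change of the 16 was 0.52 against blood and 0.27 against bone marrow, beside 0.50 and 0.29 for all genes. Casp1, the protease that cleaves the precursors of IL-1 beta and IL-18, had 167 to 206 reads in tumor against 549 to 642 in blood and 485 to 541 in bone marrow, and was lower in tumor, with log2 fold changes of -2.27 (SE 0.19) against blood and -1.67 against bone marrow. Capn2, a subunit of a calpain protease, was higher by 1.93 (SE 0.30) against blood, with 588 to 894 reads in tumor and 61 to 147 elsewhere. Elane, the neutrophil elastase of primary granules, had 10 to 31 reads in tumor against 0 to 9 in blood and 1479 to 2306 in bone marrow.

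Of 26 genes known to be driven by NF-kB, 18 were higher and 3 lower in tumor than in blood, and 21 and 1 in tumor against bone marrow. The shares over all genes tested were 32.4% higher and 20.2% lower against blood, and 25.2% and 18.4% against bone marrow. This list was chosen with earlier results of these data known. Their median log2 fold change was 2.47 against blood and 3.43 against bone marrow, beside 0.50 and 0.29 for all genes. The 3 largest against blood were the neutrophil-attracting chemokines Cxcl1 (9.58, SE 1.18), Cxcl3 (9.28, SE 0.85) and Cxcl2 (7.21, SE 0.30). Cxcl1 had 338, 979 and 260 reads in tumor against 0 to 2 in every other library, so the size of its difference depends on the constant added before the log. Cxcl2 had 33905, 52152 and 29983 reads in tumor against 125 to 807 in every other library, and Cxcl3 had 4621, 7157 and 2919 against 1 to 14. In both the second tumor library was the highest and the third the lowest, as in log2 FPKM for all members except Il1r1 and Il18.

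The genes most like each member over the 9 libraries were found by Pearson's r of log2 FPKM among the genes tested. The libraries share compartments and scaling, and these values are a description. For Il1a they were Ccl4, Ptgs2 and Ccrl2 (r of 0.998, 0.997 and 0.996), for Il1b Dusp1, Zc3h12a and Pde4b (0.996, 0.996 and 0.995), and for Il1rn Thbs1, Nfkbiz and Tgoln1 (0.996, 0.996 and 0.995). Ccl4, Ptgs2, Zc3h12a and Nfkbiz are also on the NF-kB list. For Il1r1 they were Frmd4a, Grwd1 and Adi1 (0.991, 0.991 and 0.989) and for Il1r2 Sdcbp, Atp1b3 and E230016K23Rik (0.997, 0.991 and 0.989). For Il1rap they were Il13ra1, Tbc1d15 and Sirpb1c (0.994, 0.994 and 0.992), for Il18rap Vav1, Dgka and Parp8 (0.992, 0.991 and 0.99), and for Il36g Sh2d3c, Atf7ip and Lrrc25 (0.997, 0.992 and 0.991). Il18, at 12 to 60 reads, had none above 0.879 (Tubgcp4). Among the members, Il1a and Il1rn (0.966) and Il18rap and Il36g (0.933) were the most alike, and Il1r1 and Il18rap the most opposed (-0.943), over the same 9 libraries. Every r given for Il1r1 includes the 2 blood libraries with 0 Il1r1 reads, whose values are set by the constant added before the log.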

How the data were processed

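Transcript levels were measured by RNA sequencing in 9 libraries, 3 per compartment. According to the labels and the methods, cDNA was made with SMARTSeq v2, which does not mark strand, and the authors mapped reads with STAR 2.5.2b to GRCm38, counted them with featureCounts 1.5.0 on GENCODE M7 genes and deposited log2 FPKM values. Whole reads were recovered from these values for all 46517 genes, with a tolerance of 0.001 reads. They carry a constant of 0.143 to 0.287 reads per library, and the length was the genomic span for 84.5% of the IDs found in GENCODE M21, so levels of different genes were compared per kilobase of exon from M21. Genes with at least 5 reads in 1 library (17714) entered 1 limma model (version 3.58.1, R 4.3.3) of all libraries with a coefficient for each compartment and a variance trend over intensity, fitted on log2 FPKM as deposited, with Benjamini-Hochberg adjusted p-values at 0.05. limma was tested on simulated data. Fold changes are on the scale of log2 FPKM with its constant. The Il1rn to Il1b ratio was tested by exact permutation. The test planned for Il1r2 to Il1r1 is not used, since 2 blood libraries had 0 Il1r1 reads. Replicates are separate experiments, each a pool of 5 mice. The study compared compartments of the same mice, but no source used here says that equal replicate numbers mark the same pool, and deviations of same-numbered libraries correlated at -0.10 to 0.02, so no block was used. Members and gene lists were chosen with earlier results of these data known. All members were named. Of each pathway list, the 3 genes with the largest change in tumor against blood among those past both tumor contrasts were named, and for each member the 3 genes most correlated with it. Promoters are from RefSeq. Reads carry no molecular identifiers, so intervals cover counting error only. One further allele of the mice behind the tumor line is not reported here.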

Additional observations from a re-analysis of the deposited data

How the results depend on the processing

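Over 21 alternatives the 27 differences of members between compartments were recomputed 561 times. Of these, 532 kept their direction and side of the threshold, 14 lost the call, 7 gained one with the sign kept and 8 turned in sign. Among those 8, Il1r2 in tumor against blood with quantile normalization also passed the threshold (limma adjusted p = 0.0408). The same result was found in every alternative for 17 differences. Il18 and Il1r1 were left out by the filter of log2 FPKM over 0 in at least 3 libraries, and that filter, which tested 7794 genes, called 4880 genes in tumor against blood and 4311 in tumor against bone marrow, since fewer genes were tested. The signs that turned were those of Il1r2 in tumor against blood (0.32 with plain library totals, 0.45 with quantile normalization, 0.024 without tumor replicate 3), Il36g in tumor against bone marrow (0.073 with plain library totals), Il18 in tumor against blood (-0.13 with quantile normalization, -0.41 with median centring, -0.11 without tumor replicate 1) and Il18 in blood against bone marrow (-0.011 without bone marrow replicate 3). Without 1 library these ranged from -0.28 to 0.024 for Il1r2 and from -0.11 to 0.82 for Il18 in tumor against blood, and from -0.011 to 0.68 for Il18 in blood against bone marrow. None of these differences was a call as deposited. Plain library totals moved the median of all genes in tumor against blood to 0.89, quantile normalization to -0.23 and median centring to -0.25. The number of members called in tumor against blood was 3 to 5 higher and 3 to 4 lower over the alternatives, and in blood against bone marrow 4 to 7 higher and 0 to 1 lower. Limma-voom on the recovered reads called 9759, 8914 and 5361 genes in tumor against blood, tumor against bone marrow and blood against bone marrow. The replicate block called 9069, 7468 and 4821, and added the calls of Il1a (adjusted p = 0.0382) and Il1r1 (0.0488) in blood against bone marrow. Leaving out 1 library gave 8311 to 9036, 6602 to 7755 and 3838 to 5310 called genes in the same order. Without 1 library the differences of the ratios ranged from 0.66 to 0.85 and from -9.12 to -6.93, the latter resting on 2 blood libraries with 0 Il1r1 reads and at -5.89 with 1 read added. Depth limits Il18, Il1r1 and, outside tumor, Il1a, each with fewer than 40 reads in any bone marrow or blood library. The causes of these shifts were not tested.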
